A study of Mus musculus with 14 samples.

Results

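The hairpins described here are the mouse microRNA (miRNA) hairpins with high registry numbers. They are the rows of the table named mir-4000 to mir-6895, or mir-7095 and above, with suffix letters and copy numbers ignored. The rule took 79 of 539 rows, from mir-5098 to mir-9769, and they are called late-numbered hairpins below. The numbers in between, mir-6896 to mir-7094, are called the mirtron series and were set apart because many hairpins there were registered as mirtrons, which splicing cuts out of a host transcript. The rule reads the name alone and uses no measured value, though it was chosen with earlier results of these data known.

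The material was small RNA from exosomes, the small vesicles that cells release, made by macrophages of adipose tissue (CD11b+ F4/80+ cells) of C57BL/6 mice. The labels describe 7 libraries from obese and 7 from lean animals, and do not state how obesity was produced. Nothing in them says that the libraries are from different mice, so p-values speak only of the scatter among these 14 libraries, which may be technical. Cells of both groups spent 72 h in culture, with 10% serum freed of exosomes, before the vesicles were pelleted by ultracentrifugation. Every age label starts at 24 weeks, and its upper end runs from 26 to 32 weeks through the obese libraries and from 33 to 39 weeks through the lean ones, 1 week more with each library in the order of listing. Such a regular run makes the upper ends doubtful; if they hold, age and obesity cannot be told apart.

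Names of miRNAs are numbered in the order in which they were registered. The low numbers hold most of the conserved, abundant miRNAs found by cloning, among other entries. The late numbers were mostly added from deep sequencing, often on few reads. A hairpin is cut by Drosha and Dicer to a mature strand, whose seed, bases 2 to 8, pairs with target messages in an Argonaute complex. Entries that lie inside other transcripts can also collect pieces of those transcripts when reads are counted. A count alone does not record how the reads were cut.

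RefSeq's miRNA table for GRCm38.p6 held 74 of the 79 late-numbered hairpins, 73 of them with at least 1 mature sequence. The mature strands of the 3 hairpins that passed the test are shown first, since the result turns on them. Each is written 5′ to 3′ with the seed in capitals, and the hairpin of mir-5103 follows with its mature strand in capitals.
miR-5103: uCAUCCGGgauccccugagg
miR-8098: gCUAUGGUcgcuggcucccaa
miR-5098: gUUACAUGgugaagcccaguu
mir-5103 hairpin: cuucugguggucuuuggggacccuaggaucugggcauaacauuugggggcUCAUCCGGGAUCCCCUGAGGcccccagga

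The next strands belong to the most abundant late-numbered hairpins, shown because they make up most of the top ranks of the group and did not pass the test. The seed is again in capitals.
miR-6240: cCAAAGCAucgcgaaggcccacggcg
miR-6236: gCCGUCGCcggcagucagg
miR-6516-5p: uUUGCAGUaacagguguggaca
miR-6516-3p: uCAUGUAUgauacugcaaacag
miR-8112: uCUCCGCCaccuccaccgca
miR-8114: uCACCCAUcuccucuccgccu
miR-5121: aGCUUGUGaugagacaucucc
miR-5114: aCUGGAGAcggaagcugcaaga

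The last strands are those of hairpins with an unadjusted p under 0.05 that did not pass after adjustment, then the pair that shares a seed, and then the arms of a hairpin with copies. Seeds are in capitals as before.
miR-6546-5p: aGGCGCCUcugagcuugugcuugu
miR-6546-3p: gAGCGAAGcccaagcgccaga
miR-5130: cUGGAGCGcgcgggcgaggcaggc
miR-7672-5p: cGGUGGACuugacagcgggcga
miR-7672-3p: uCGGCUGCcagguucaugugg
miR-5625-5p: cCCGGAAGuucuugaguagga
miR-6340: gUCAGCAGcagcuucgcuuuggc
miR-5620-5p: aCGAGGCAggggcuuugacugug
miR-7689-5p: cCGAGGCAgccuggcuuag
miR-7676-5p: aGGGCAGUaugauggccucugau
miR-7676-3p: uCCGGUGCucacucugcccaca

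The values come from 1 table of the authors' own test of the groups, which lists for each hairpin a difference between the groups (log2 fold change), its mean log2 expression over both groups and p-values from limma. It has no value for any single library, so depth, the spread of each group on its own and any overlap of the groups are unknown here. Only a standard error of each difference can be recovered, from the fold change and t. Its header does not give the direction of the fold change. Signs are therefore given relative to mir-155, which stands at 4.41 (adjusted p = 0.00205) per the authors' deposited table. Outside these data, mir-155 is known from publications as higher in such vesicles with obesity, and under that reading a negative value is a lower level in the obese group. Fixed macrophage and myeloid markers were all listed, 6 of 6, with a mean log2 expression between 4.17 and 14.94 and log2 fold changes from −4.70 to 4.41 in the authors' deposited table. Besides mir-155, the macrophage marker mir-511 was called, on the negative side at −4.70 (adjusted p = 0.0148) per the authors' deposited table. Markers of other cells were listed too: the authors' deposited table gives a mean log2 expression of 3.24 for the lymphocyte marker mir-150, 6.46 for endothelial mir-126a, 0.11 to 2.55 for 3 epithelial hairpins, 0.97 to 8.78 for 3 adipocyte hairpins, 0.22 to 6.59 for 5 mesenchymal hairpins and 6.76 to 11.81 for 2 erythrocyte hairpins. Of the markers of other cells, only the adipocyte hairpin mir-365-2 was called, at −3.75 (adjusted p = 0.0266) per the authors' deposited table. That is the negative side, as for mir-511 and the 3 late-numbered hairpins described next. The copy mir-365-1 stood at 0.98 (adjusted p = 0.591) per the authors' deposited table. Hepatocyte mir-122 stood at 1.36 (adjusted p = 0.612) per the authors' deposited table. Muscle mir-133a-1 and mir-133a-2 stood at 0.69 (adjusted p = 0.896) and 0.80 (adjusted p = 0.866) per the authors' deposited table. The other fixed muscle marker, mir-1a, had no row. What these cells contribute to the values below was not tested.

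Of the 79 late-numbered hairpins, 3 had an adjusted p under 0.05 in the authors' deposited table, all of them negative. They are mir-5103, mir-8098 and mir-5098. Over all 539 rows 5.57% were called, 3.53% on the negative side and 2.04% on the positive side, so 3 of 79 (3.80%) is near the share in the whole table. On the positive side none of the late-numbered hairpins passed limma's adjusted threshold, and 1 had an unadjusted p under 0.05, where 8.53% of all rows did. On the negative side 8 had an unadjusted p under 0.05 (10.1%), beside 9.09% of all rows. At an adjusted p under 0.1 the same 3 hairpins passed and no others, while 4.82% of all rows passed on the negative side.

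**Figure D1:**
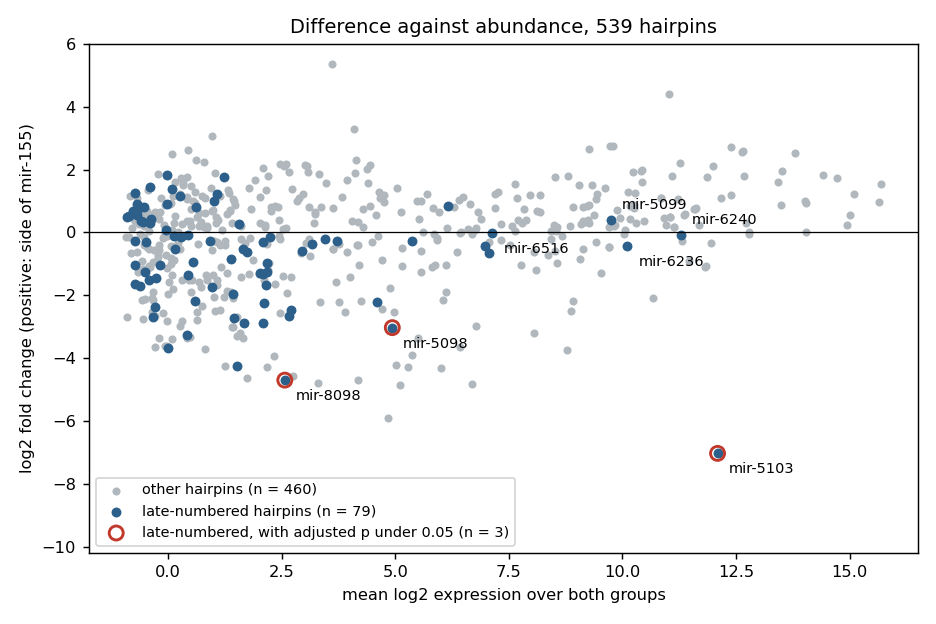
Log2 fold change (vertical axis, positive on the side of mir-155) against mean log2 expression over both groups (horizontal axis) for 539 hairpins, 1 point each, from the authors' deposited table. The 79 late-numbered hairpins are blue and mostly lie at the low end, and the 3 called ones, ringed in red, lie at −3.03, −4.70 and −7.03.

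The hairpin mir-5103 had the most negative value of all 539 rows in the authors' deposited table, −7.03 on the log2 scale, or 131-fold. Its mean log2 expression over both groups, 12.09 from the authors' deposited table, was the highest of the late-numbered hairpins. That mean ranks 24 among all rows. With so large a difference, these ranks need not hold within each group. The difference was poorly bounded: its standard error, from the deposited fold change and t, was 1.99 and its 95% interval ran from −11.22 to −2.85. The authors' deposited table gives it an adjusted p of 0.0432. RefSeq places mir-5103 on GRCm38.p6 at chr1:34433121-34433199 on the minus strand. GENCODE M21, on the same assembly, has there an exon of the long noncoding RNA gene Gm37233, and the whole mature strand lies within it. The mature strand is 65% G and C.

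The hairpin mir-8098 stood at −4.70 on the log2 scale (26.0-fold), with adjusted p = 0.0425, per the authors' deposited table. Its 95% interval ran from −7.48 to −1.92. With a mean log2 expression of 2.57 from the authors' deposited table it ranks 259 among all rows, far below mir-5103. It lies at chr14:62837721-62837857 on the plus strand, in an exon of Wdfy2, which encodes a protein that binds endosomal membranes, on the 5′ side of the coding sequence. On the opposite strand GENCODE has the noncoding gene Gm26536, and the sources used here do not say whether counting used strand. Another late-numbered hairpin, mir-6541, lies in an intron of the same Wdfy2 gene and had a log2 fold change of 0.91 (adjusted p = 0.621) with a mean log2 expression of −0.03 from the authors' deposited table.

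The hairpin mir-5098 had the smallest p of the late-numbered hairpins, 0.0272 after adjustment, and stood at −3.03 on the log2 scale (8.18-fold) per the authors' deposited table. Its standard error of 0.78 was well under those of the other called hairpins, and its 95% interval ran from −4.67 to −1.40. Mean log2 expression was 4.93 per the authors' deposited table. Its mature strand lies at chr5:77272767-77272787 on the plus strand, in an intron of Rest, the gene of a repressor that keeps neuronal genes silent outside neurons. No stretch of 18 bases of the mature strands of mir-5098, mir-8098 or mir-5103 was found in a GENCODE transcript of any gene that does not span the hairpin. When all rows whose mature strand lies whole in a transcript other than a miRNA were left out, mir-5103 and mir-8098 went with them by construction, and mir-5098 was the 1 call left (adjusted p = 0.0297).

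The other abundant late-numbered hairpins did not pass. The most abundant after mir-5103 were mir-6240 and mir-6236, which had a mean log2 expression of 11.29 and 10.11, and log2 fold changes of −0.07 (adjusted p = 0.977) and −0.45 (0.929) per the authors' deposited table. Both lie outside genes annotated in GENCODE, on chromosomes 5 and 9. Matches of their mature strands to sequences that GENCODE does not hold were not sought. The seed of miR-6240 is that of miR-330-3p, whose hairpin mir-330 stood at −0.97 (adjusted p = 0.526) per the authors' deposited table. The hairpin mir-5099 followed with a mean log2 expression of 9.74 and a log2 fold change of 0.39 (adjusted p = 0.929) per the authors' deposited table. The 95% intervals of these 3 hairpins all reach to −2.30 or lower and to 2.39 or higher, so these values do not bound the differences tightly in either direction.

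Between mean log2 expression 5 and 8 lay 5 late-numbered hairpins, each inside the exon of a known transcript. The hairpin mir-6516 lies in the small Cajal body RNA Gm26083 and had a log2 fold change of −0.02 (mean log2 expression 7.14, adjusted p = 0.991) per the authors' deposited table. The hairpin mir-5121 lies in Snord33, a box C/D small nucleolar RNA that guides methylation of ribosomal RNA and is spliced from Rpl13a, and stood at 0.84 (mean 6.16, adjusted p = 0.825) per the authors' deposited table. The remaining 3 lie in messenger RNAs. In the authors' deposited table mir-8114, in the 5′ part of the glutamine synthetase gene Glul, was at −0.42 (mean 6.96, adjusted p = 0.906). For mir-8112, in the 5′ part of Krcc1, the authors' deposited table gives −0.65 (mean 7.05, adjusted p = 0.733). For mir-5114, in the stearoyl-CoA desaturase gene Scd2, which makes monounsaturated fatty acids, the authors' deposited table gives −0.27 (mean 5.36, adjusted p = 0.937).

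**Figure D2:**
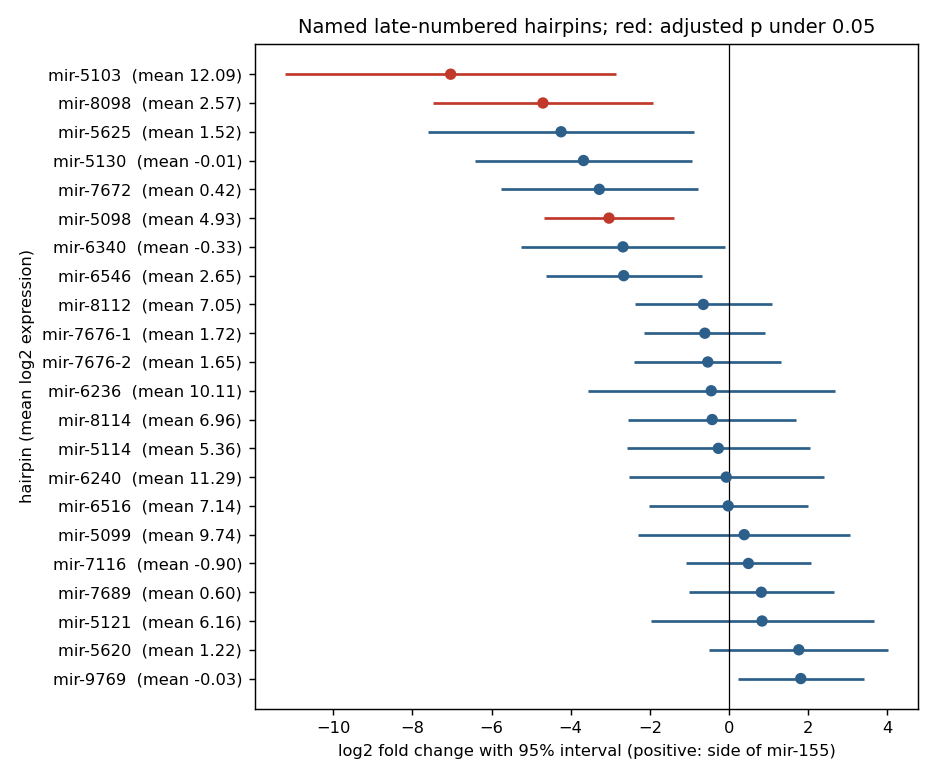
Log2 fold change from the authors' deposited table (point) with the 95% interval recovered from it (line) for the 22 hairpins named by rule, with the mean log2 expression of each beside its name. Red marks the 3 with an adjusted p under 0.05, and mir-5103 has the widest interval, from −11.22 to −2.85.

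Below the called hairpins, 5 more were negative with an unadjusted p under 0.05, with a mean expression below that of mir-5098. The authors' deposited table gives mir-5625 at −4.24 (adjusted p = 0.139), mir-5130 at −3.68 (adjusted p = 0.120) and mir-7672 at −3.28 (adjusted p = 0.123). All of these lie in exons of protein-coding genes: mir-5625 in the 5′ untranslated part of Slc35f6, mir-5130 in that of Kctd12, an auxiliary subunit of GABA-B receptors, and mir-7672 in the coding sequence of Pde12, a mitochondrial ribonuclease. The hairpin mir-6546 was at −2.66 (adjusted p = 0.120) per the authors' deposited table, and lies in an intron of Fcgr3, the gene of an Fc receptor for IgG that macrophages carry. On the opposite strand of the endosomal GTPase gene Rab22a, mir-6340 was at −2.68 (adjusted p = 0.258) per the authors' deposited table. From the authors' deposited table, their mean log2 expression ran from −0.33 for mir-6340 to 2.65 for mir-6546.

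The 1 positive hairpin with an unadjusted p under 0.05 was mir-9769, at 1.82 (adjusted p = 0.196) with a mean log2 expression of −0.03 from the authors' deposited table. That is the largest positive value of the late-numbered hairpins. The next was mir-5620 at 1.77 (adjusted p = 0.401) per the authors' deposited table, which lies opposite the chloride transporter gene Clcn4. Its seed, CGAGGCA, is shared with mir-7689, at 0.82 (adjusted p = 0.683) per the authors' deposited table. These were the only late-numbered hairpins of different stems with a common seed, since 102 mature entries held 99 distinct seeds.

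A further 6 hairpins shared a seed with rows outside the group, mir-6240 included. The seed of miR-7670-3p is that of miR-204-5p and miR-211-5p. In the authors' deposited table mir-7670 was at −1.46 (adjusted p = 0.547), mir-211 at −2.43 (adjusted p = 0.165) and mir-204 at 1.17 (adjusted p = 0.654), so rows with this seed took both signs. The seed of miR-8111 is that of miR-1946b. The hairpin mir-1946b was called in the authors' deposited table at −3.36 (adjusted p = 0.0209), while mir-8111 stood at −1.25 (adjusted p = 0.629). The difference between these rows was not tested.

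The group holds 1 pair of copies. The hairpins mir-7676-1 and mir-7676-2 have the same arms and lie on chromosome 15 in Csf2rb2 and Csf2rb, neighbouring genes for chains of interleukin 3 receptors. Their log2 fold changes were −0.61 (adjusted p = 0.715) and −0.53 (adjusted p = 0.833) per the authors' deposited table, with a mean log2 expression of 1.72 and 1.65. Reads of these copies cannot be told apart, so they are not independent measurements. The least abundant late-numbered hairpin, mir-7116 in an intron of the citrate lyase gene Acly, had a mean log2 expression of −0.90 and a log2 fold change of 0.49 (adjusted p = 0.801) per the authors' deposited table.

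As a group the late-numbered hairpins were scarce and mostly negative. Their median mean log2 expression was 0.92, beside 2.34 over all rows, 5.91 below mir-1000, 2.10 from mir-1000 to mir-3999 and 0.30 in the mirtron series, from the authors' deposited table. Only 13 of 79 reached a mean log2 expression of 3.32, that is log2 of 10, where 42.9% of all rows did, and 28 were under 0. Of the 79 late-numbered values of the authors' deposited table, 54 were negative (68.4%), beside 47.3% of all rows, 33.2% below mir-1000, 44.8% from mir-1000 to mir-3999 and 71.7% in the mirtron series. Recentring all rows by 0.34, the median log2 fold change of the 180 most abundant, moved these shares to 73.4%, 59.0%, 47.1%, 57.5% and 81.8%. The same 3 late-numbered hairpins were called. The shift enlarges every negative value, so this does not check how those calls depend on centring. The median log2 fold change from the authors' deposited table was −0.42, beside 0.09 over all rows and −1.07 in the mirtron series, and after recentring −0.76, −0.25 and −1.41. None of these differences was tested, because values per library are needed for that.

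**Figure D3:**
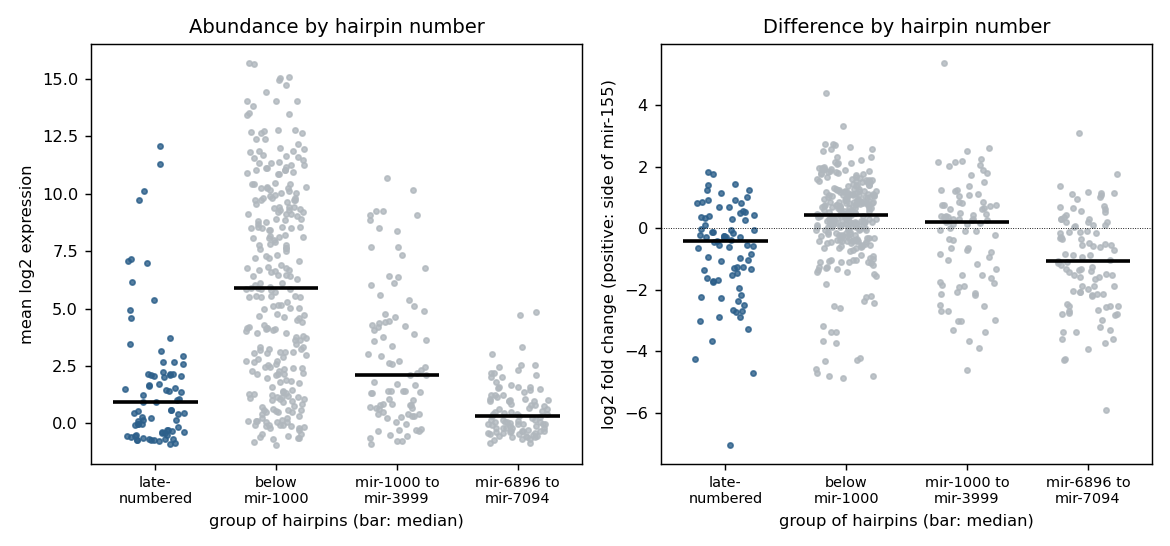
Mean log2 expression (left) and log2 fold change (right, positive on the side of mir-155) for each hairpin of 4 groups of registry numbers, from the authors' deposited table, with bars at the medians. The late-numbered hairpins have a median expression of 0.92 and a median fold change of −0.42, between the rows below mir-1000 and the mirtron series on both scales.

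The sign differed with abundance within the group. Of 28 late-numbered hairpins with a mean log2 expression under 0, 12 were negative, with a median log2 fold change of 0.31 from the authors' deposited table, which turned to −0.03 on recentring. Of 38 between 0 and 3.32, 31 were negative, with a median of −0.90 from the authors' deposited table and −1.24 after recentring. Of the 13 most abundant, 11 were negative, with a median of −0.27 from the authors' deposited table and −0.61 after recentring. The other rows were not split by abundance in this way. Whether the pattern is particular to the late-numbered hairpins is therefore not known, and the part of low counts in it was not tested.

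The precision of single values was low. The median standard error of the late-numbered hairpins was 1.11 on the log2 scale, beside 0.97 over all rows. At the smallest absolute t that was called, 3.53, such a hairpin needs a log2 fold change of 3.93 to pass. For 47 of the 79 the 95% interval reached beyond 2-fold in both directions, so a p that misses the threshold does not show that they were at the same level in both groups.

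Exons of protein-coding genes held a larger share of the late-numbered hairpins than of the whole table, a difference that was not tested. Of the 74 that were placed, 23 (31.1%) had a mature strand wholly in an exon of a protein-coding gene on the same strand, beside 14.9% of all placed rows, 7.44% below mir-1000, 20.3% from mir-1000 to mir-3999 and 16.9% in the mirtron series. A further 31 lay in introns, 10 outside annotated genes, 7 on the opposite strand of a gene, 2 in small noncoding RNAs and 1, mir-5103, in an exon of a long noncoding RNA. Of the 23, 6 lay in the 5′ untranslated part alone, 4 in the 3′ untranslated part alone, 5 in coding sequence alone and 2 only in an exon of a noncoding isoform, and the rest in more than 1 of these.

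Those 23 exonic hairpins were negative in 21 cases, with a median log2 fold change of −1.28 from the authors' deposited table. The 51 placed elsewhere were negative in 31 cases, with a median of −0.16 from the authors' deposited table. In the rest of the table, 49 rows in protein-coding exons were negative in 20 cases, with a median of 0.38 from the authors' deposited table. That set pools 18 rows below mir-1000, 16 from mir-1000 to mir-3999 and 15 of the mirtron series. The share of negative values differs among these groups, so the count does not isolate exonic position. Recentring by 0.34 gave 22 of 23, 33 of 51 and 24 of 49. Median mean log2 expression was 1.45, 0.95 and 1.52 in these 3 sets, from the authors' deposited table. Of the 23, only mir-8098 was called, and the difference between the sets was not tested.

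**Figure D4:**
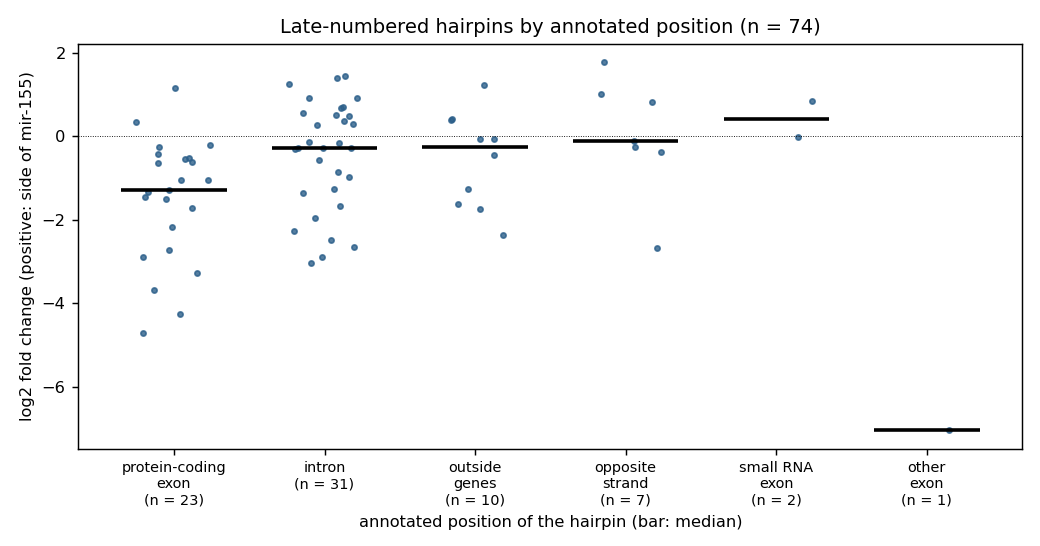
Log2 fold change from the authors' deposited table (positive on the side of mir-155) for the 74 placed late-numbered hairpins by annotated position, 1 point each, with bars at the medians. In protein-coding exons 21 of 23 lie below 0, with a median of −1.28, and in introns 18 of 31 do, with a median of −0.27.

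Values of 5 further exonic hairpins, chosen after their values were seen, are given as examples, and none of them passed. In the authors' deposited table mir-5132, in an exon of a noncoding isoform of Irak1, a kinase of Toll-like receptor signalling, was at −1.28 (adjusted p = 0.654). The hairpin mir-8115, in P2rx7, an ATP-gated channel that triggers the inflammasome, was at −0.21 (adjusted p = 0.929) with a mean log2 expression of 3.46 from the authors' deposited table. In an exon of a noncoding isoform of the arrestin gene Arrb2 lies mir-7115, at −1.72 (adjusted p = 0.519) per the authors' deposited table. The 2 positive ones of the 23 were mir-5113, at 1.15 (adjusted p = 0.567) per the authors' deposited table, and mir-5116 at 0.34 (adjusted p = 0.912), which turned to −0.00129 after recentring by 0.34. The first lies in Tnrc6b, which encodes a scaffold of the Argonaute silencing complex.

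The mature strands of the late-numbered hairpins were rich in G and C. Their median share was 59.5%, beside 52.3% over all rows with a mature strand, 47.7% below mir-1000, 54.5% from mir-1000 to mir-3999 and 57.8% in the mirtron series, which was nearly as rich. The range was wide, from 32.6% in mir-7116 to 94.7% in mir-6538 and 100% in mir-5126. Of the mature strands, 34 of 102 (33.3%) began with U, the base that Argonaute proteins often hold at the 5′ end, beside 39.2% over all rows, 36.8% below mir-1000, 33.6% from mir-1000 to mir-3999 and 52.6% in the mirtron series. Both arms were listed for 29 of 73 (39.7%), beside 72.5% over all rows, 81.7% below mir-1000, 51.9% from mir-1000 to mir-3999 and 92.1% in the mirtron series. None of these differences was tested.

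A stretch of 18 bases of a mature strand was found in a GENCODE transcript of another gene for 9 of 73 late-numbered hairpins (12.3%), beside 15.4% of all rows. Sequences that GENCODE does not hold were not searched. For 2 of them the number of such genes was high, with 54 for mir-7667 and 12 for mir-5128. Their log2 fold changes were −0.31 (adjusted p = 0.929) and −0.27 (adjusted p = 0.945) per the authors' deposited table. Predicted folds were of similar strength to those of the table, with a median minimum free energy of −0.40 kcal/mol per base over 64 hairpins, beside −0.42 over all 447 with a sequence. The extremes were −0.85 for mir-7648 and −0.21 for mir-6238.

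**Figure D5:**
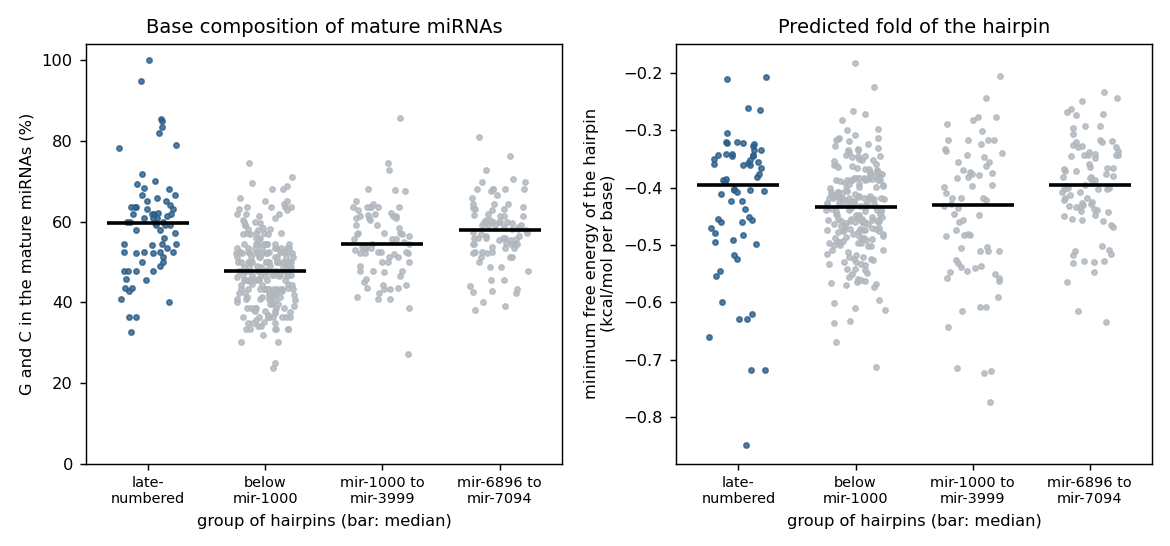
Share of G and C in the mature strands (left, %) and minimum free energy of the hairpin per base (right, kcal/mol, lower is more stable) by group of registry numbers, 1 point per hairpin with bars at the medians. The late-numbered hairpins have a median of 59.5% G and C and of −0.40 kcal/mol per base.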

How the data were processed

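Small RNA of exosomes was sequenced in 14 libraries. Tools named in the submitters' processing notes, with no roles, are Trimmomatic 0.30, Novoalign, limma, edgeR, FastQC and MultiQC. Not given in the sources used here are build, miRNA annotation, filters, scaling, the unit under the log2, strand and the handling of reads with several matches. As units, the authors' deposited table gives log2 fold changes and mean log2 expression, a moderated t (a score), p-values unadjusted and adjusted, and B, a natural log of odds, per the file headers. It has no counts, so depth is unknown and no model was refitted. Its adjusted p equals a Benjamini-Hochberg adjustment over 539 rows. Standard errors are fold change over t, and intervals use the 17.9 degrees of freedom recovered from t and p, a recovery tested on simulated data. A hairpin is called at an adjusted p under 0.05.

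Hairpins were matched by symbol to RefSeq's miRNA table (GRCm38.p6; 484 of 539 rows) and placed on GENCODE M21 by whether a mature strand lies whole in an exon. Hairpins were folded with RNAfold 2.7.2. Named by rule were called hairpins, the 10 most abundant of the 79, up to 5 of the largest uncalled values in each direction with an unadjusted p under 0.05, the extremes of abundance, copies and shared seeds. Others, among them mir-5107, mir-5113, mir-5116, mir-5128, mir-5132, mir-6541, mir-7115, mir-7667 and mir-8115, were chosen after their values were seen. The members and lists were chosen with earlier results of these data known. Alternatives were another threshold, a 2-fold minimum, recentring, an expression minimum, 1 row per stem, a narrower number range and leaving out rows that lie in transcripts.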

Additional observations from a re-analysis of the deposited data

How the results depend on the processing

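No late-numbered hairpin was called on the positive side under any of the 7 alternatives run, and the count on the negative side was 3 under 5 of them. Much of this was fixed in advance. A threshold of 0.1 could not lose the 3 calls. A 2-fold minimum could neither add calls nor drop values as large as theirs. Recentring lowers every value by 0.34, which favours negative calls over positive ones. An expression minimum of 3.32 left 13 late-numbered hairpins, of which mir-5098 and mir-5103 passed, and the median log2 fold change became −0.27. Leaving out rows whose mature strand lies whole in a transcript other than a miRNA gave 1 call and a median of −0.15, over the 52 late-numbered hairpins left, since mir-5103 and mir-8098 are among the rows left out. Recentring by 0.34 gave a median of −0.76. All late-numbered hairpins are above mir-5000, so the narrower range changed nothing by construction. The 22 hairpins named by rule kept their sign and their side of the threshold after recentring, and so did the 10 of them that reach the expression minimum. No paired analysis was possible because single libraries have no values in it, and for the same reason leaving out single libraries could not be run. Depth is unknown, and the low mean expression of most late-numbered hairpins limits what these values can show.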

Other observations

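Values of a few more late-numbered hairpins, with no test of their own, are as follows. The hairpin mir-5107 had a mean log2 expression of 4.59 and a log2 fold change of −2.22 (adjusted p = 0.401) per the authors' deposited table. In an intron of Mief2, mir-5100 had a mean log2 expression of 2.69 and a log2 fold change of −2.48 (adjusted p = 0.338) per the authors' deposited table. The hairpin mir-5126 lies opposite Dner and stood at −0.38 with a 95% interval from −4.20 to 3.44, recovered from the authors' deposited table. By registry number, 17 of 23 hairpins of the mir-5000s, 9 of 13 of the mir-6000s, 18 of 27 of the mir-7000s and 10 of 15 of the mir-8000s were negative in the authors' deposited table.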
